A study of Mus musculus with 12 samples.

Results

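RNA polymerase II (Pol II) occupancy was compared between villi of mice labelled as Hnf4 double knockouts (DKO) and crypts of wild-type (WT) mice, both from the epithelium of the mouse duodenum. The comparison involves 6 of the 12 libraries of the series, 3 of labelled-DKO villus and 3 of WT crypt. It was chosen by group label, and no deposited table makes it directly. It was rebuilt gene by gene for the 6429 genes common to both deposited tables of fold changes, which share a set of 3 WT villus libraries.

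The DKO mice carry the genotype label Hnf4 alpha gamma DKO and received tamoxifen at 50 mg/kg/day for 2 days, and they were killed 1 day after the last injection. The WT mice received the vehicle, ethanol in corn oil. Per the labels, tissue was held in EDTA for 25 minutes for mutants and 35 minutes for WT, and a 70 µm filter held back villi and let crypts pass. Only villi were taken from the mutants. Genotype, tamoxifen, EDTA time and the compartment of the epithelium therefore all differ between these groups, and they cannot be told apart. The Cre driver, the deleted exons and the age of the mice are not given in the sources used here.

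Crypts hold the stem cells and dividing progenitors of the intestinal lining. Their daughters move up onto the villus, stop dividing and become mostly absorptive enterocytes, which take up fat, sugar, peptides and metals through a brush border of microvilli. HNF4A and HNF4G are closely related nuclear receptor-type transcription factors that bind DNA at many enterocyte genes. Pol II ChIP-seq measures how much polymerase is bound over a gene, which is related to, but is not, the level of its RNA. Setting labelled-DKO villus against crypt addresses how far the polymerase pattern of these villi lies from that of the WT progenitor compartment.

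Each log2 change below is the villus-over-crypt value minus the WT-over-DKO value of the authors' deposited tables. Its standard error (SE) is printed after ±, and it is the largest that independent libraries allow, the root of the summed squares. A gene was called when the adjusted p of a two-sided Wald test with that SE (Benjamini-Hochberg over 6429 genes) was under 0.05. Levels are rebuilt group means in size-factor-normalised counts over a gene, and they are compared only within a gene, since they depend on its length. The labels list 3 libraries per group. No value per library could be assigned to a sample, so overlap between libraries is not shown, the depth of each library is unknown, and nothing says whether replicates came from separate mice.

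Markers of each compartment were read in the deposited comparison of WT compartments, in which the authors' deposited table calls 37.4% of all genes, 18.6% higher in villus and 18.8% higher in crypt. Of 23 lipid absorption genes 21 were called higher in villus, and of 11 cell cycle genes 8 were called higher in crypt. Of 6 stem cell and Wnt genes tested 4 were called higher in crypt and 1, Sp5, in villus. The 12 mesenchymal and endothelial markers were not among the genes tested. Of 15 immune cell markers 4 were tested, and none was called between labelled-DKO villus and crypt, with changes from -0.01 to 0.42 and 0 at an unadjusted p under 0.05, a level that 24.7% of all genes pass.

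At the targeted genes, the labelled-DKO villi held more Pol II than crypt. Hnf4g had a level of 1201 in crypt and 3046 in labelled-DKO villus, a log2 change of 1.34 ± 0.32 (Wald adjusted p 0.000485). Hnf4a had 1226 in crypt and 1986 in labelled-DKO villus, a change of 0.70 ± 0.20 (Wald adjusted p 0.00686). In mm9 the windows of Hnf4g lie at chr3:3507930-3659300 and those of Hnf4a at chr2:163332493-163398143. The windows span the whole genes and the deleted part is not given, so these values do not check the deletion, and the libraries are called labelled-DKO throughout. Hnf4aos, an antisense gene whose windows overlap those of Hnf4a, was called lower at -0.34 ± 0.12 (Wald adjusted p 0.0489). The counting recorded no strand option, so reads of the pair cannot be told apart.

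Pol II signal was called different at 874 of 6429 genes (13.6%), with 412 higher in labelled-DKO villus (6.41%) and 462 lower (7.19%). The median log2 change of all genes was 0.0026, and the middle 90% of genes lay between -0.66 and 0.70. Changes beyond 1 on the log2 scale were called at 116 genes upward and 107 downward, and beyond 2 at 13 upward and 8 downward. For 5318 genes (82.7%) the 95% interval of the change lay within 1 of zero on the log2 scale. With the SE rebuilt from the fitted noise of crypt and labelled-DKO villus, in place of the largest one, 29.9% of genes were called, 15.6% higher and 14.3% lower. The split by direction moved with the scaling. When every gene was shifted by 0.14, so that the median ribosomal protein gene came to 0, 902 genes were called higher and 298 lower, so that 75.2% of the calls were upward instead of 47.1%.

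**Figure D1:**
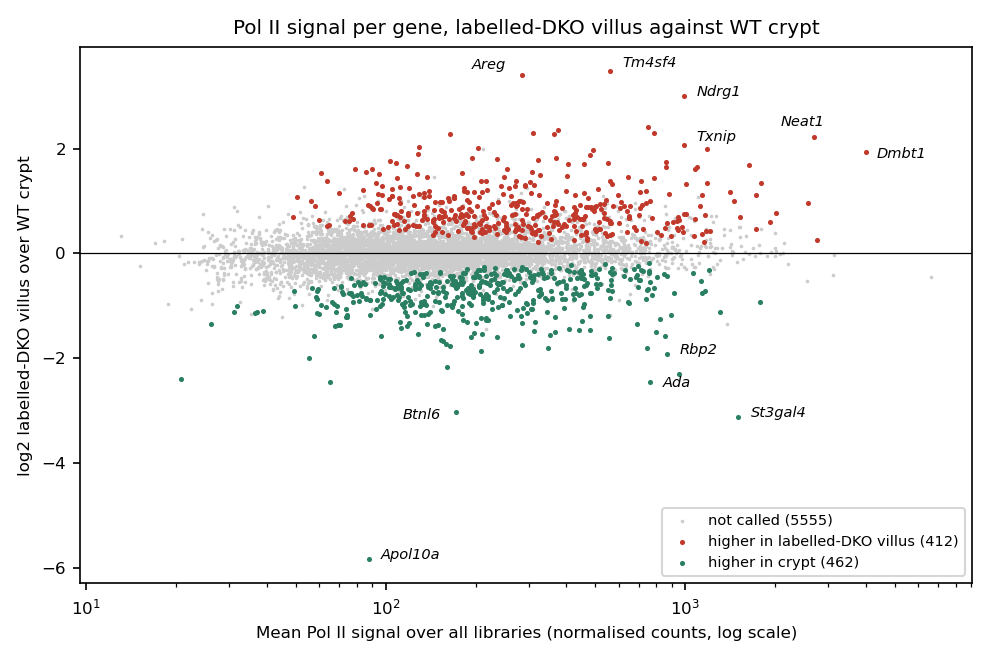
Each point is 1 of 6429 genes, with its mean Pol II signal over all libraries (normalised counts, log axis) against its log2 change of labelled-DKO villus over WT crypt. Red points are the 412 genes called higher, green points the 462 called lower and grey points the 5555 not called, and the labelled genes range from Tm4sf4 at 3.47 to Apol10a at -5.83.

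Among called genes whose mean signal reached the median of all genes, the largest increase was at Tm4sf4, which encodes a tetraspanin-like membrane protein of the gut and liver. Its level was 121 in crypt, 219 in WT villus and 1345 in labelled-DKO villus, an 11.1-fold difference from crypt and a log2 change of 3.47 ± 0.25 (Wald adjusted p 3.22e-41). Areg encodes amphiregulin, a ligand of the epidermal growth factor receptor (EGFR). It had 66.4 in crypt and 701 in labelled-DKO villus, a change of 3.40 ± 0.85 whose 95% interval ran from 1.74 to 5.06. Ndrg1, a gene known to respond to hypoxia and stress, had 297 in crypt, 288 in WT villus and 2387 in labelled-DKO villus, a change of 3.01 ± 0.43. Areg and Ndrg1 thus stood high in labelled-DKO villus against both WT compartments, whose levels were close in value.

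The next increases included genes of lipid and fuel use. Dgat2, an enzyme of the last step of triglyceride synthesis, rose by 2.41 ± 0.75 over crypt, and Sgk1, a kinase that acts on ion channels and transporters, by 2.30 ± 0.67. Txnip, the glucose-responsive thioredoxin-interacting protein gene, rose by 2.07 ± 0.33. Its antisense neighbour Gm15441 rose by 2.30 ± 0.30, and their windows overlap, so these are not separate measurements. The same holds for the overlapping Gp1bb (2.36 ± 0.85) and Septin5 (2.29 ± 0.76), both with a Wald adjusted p above 0.01. Gcnt3, an enzyme that builds mucin O-glycans, rose by 2.27 ± 0.33 from 70.8 to 341. Pdk4, the kinase that shuts off pyruvate dehydrogenase, rose by 2.00 ± 0.36 from 98.3 to 394. Neat1, the long noncoding RNA that scaffolds paraspeckles, had 985 in crypt, 2452 in WT villus and 4614 in labelled-DKO villus, so its change over crypt (2.23 ± 0.38) was in the same direction as that of WT villus.

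Among called genes with that same signal minimum, the largest decrease was at St3gal4, a sialyltransferase gene. Its level was 1394 in crypt, 2945 in WT villus and 160 in labelled-DKO villus, an 8.74-fold difference from crypt and a log2 change of -3.13 ± 0.15 (Wald adjusted p 2.69e-99). Its windows overlap those of 4930581F22Rik. Btnl6, a butyrophilin-like gene, had 147 in crypt, 352 in WT villus and 17.99 in labelled-DKO villus, a change of -3.03 ± 0.17. Ada, which encodes the purine enzyme adenosine deaminase, had 458, 1749 and 83.2 in the same order, a change of -2.46 ± 0.25. At each of these genes the crypt, not the labelled-DKO villus, stood nearer to WT villus.

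That order of levels, WT villus highest and labelled-DKO villus lowest, was shared by all 12 of the largest decreases. Clec2h, a lectin gene, changed by -2.29 ± 0.25, and Rbp2, the carrier of retinol within enterocytes, by -1.92 ± 0.23. Gstm3 (-1.86 ± 0.14), Cyp3a25 (-1.81 ± 0.15) and Adh6a (-1.75 ± 0.20) encode enzymes that handle foreign compounds and alcohols. Slc6a19, the brush border transporter of neutral amino acids, changed by -1.80 ± 0.27, and Apoa4, an apolipoprotein of chylomicrons, by -1.76 ± 0.30. Gm8909 (-2.16 ± 0.28) and H2-Bl (-1.73 ± 0.24) lie near each other within the major histocompatibility complex (MHC) on chromosome 17. Apol10a fell below the signal limit for this list and was named after its value was seen. It had 100.4 in crypt and 1.77 in labelled-DKO villus, a change of -5.83 ± 0.37.

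**Figure D2:**
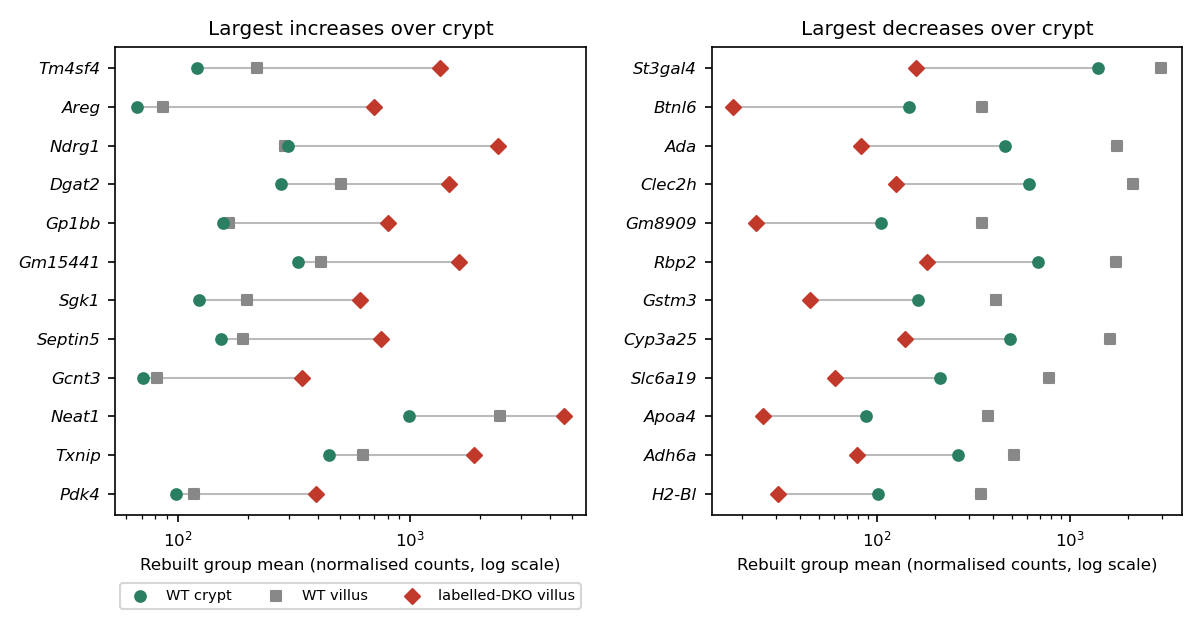
Rebuilt mean Pol II signal (normalised counts, log axis) in WT crypt, WT villus and labelled-DKO villus for the 12 largest increases (left) and the 12 largest decreases (right) by the naming rule; no per-library spread can be drawn. In the right panel every labelled-DKO point lies left of the crypt point and every WT villus point lies right of it.

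Most absorptive genes had values below their crypt level in labelled-DKO villus. Over lipid absorption, brush border enzymes and sugar handling, 48 genes were tested, of which 18 were called lower than in crypt, 4 were called higher and 26 were not called. Over all genes 7.19% were called lower and 6.41% higher, so the upward count is near that of all genes. The median log2 change was -0.56, beside 0.0026 over all genes, and 39 of the 48 changes were below 0. These lists were chosen with earlier results of these data known, so the counts are a description.

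Among 23 genes of lipid absorption and chylomicron assembly, 9 fell and 3 rose, with a median of -0.49. The same genes had a median of 0.93 for WT villus over crypt and -1.45 for labelled-DKO over WT villus in the authors' deposited tables, which share the WT villus libraries. Apob, the structural protein of chylomicrons, had 585 in crypt, 1600 in WT villus and 206 in labelled-DKO villus, a change over crypt of -1.50 ± 0.15 (Wald adjusted p 5.87e-21). Mttp, which loads lipid onto APOB, was lower at -1.58 ± 0.38, and its windows overlap those of Trmt10a. Tm6sf2 (134 in crypt, 67.2 in labelled-DKO villus), the cholesterol esterifying enzyme gene Soat2 (-0.91 ± 0.19) and Npc1l1 (-1.05 ± 0.32), the gene of the cholesterol uptake protein of the brush border, were lower as well.

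In this list 3 members moved the other way. Beside Dgat2, they were Fabp1, a fatty acid binding protein (0.94 ± 0.26), and Plin2, a coat protein of lipid droplets (0.88 ± 0.24). Fabp1 had 277 in crypt, 744 in WT villus and 531 in labelled-DKO villus, so it lay between the WT compartments. Plin2 had 111, 96.1 and 204 in the same order, above both. Creb3l3, a regulator of lipid genes, had 196 in crypt and 219 in labelled-DKO villus, a change of 0.16 ± 0.16 that did not pass (Wald adjusted p 0.643), against 513 in WT villus.

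Of 16 brush border enzymes 5 fell and 1 rose, with a median of -0.58. Ggt1, a gamma-glutamyl transferase, was lower at -1.23 ± 0.16 (155 in crypt, 405 in WT villus, 66.1 in labelled-DKO villus), and so was the aminopeptidase gene Enpep (-0.95 ± 0.22). The peptidase genes Naaladl1 (-0.80 ± 0.18) and Cndp2 (-0.55 ± 0.11) were also called lower. Ace, the gene of angiotensin-converting enzyme, rose by 0.88 ± 0.25. The classic disaccharidase genes were not resolved: Sis (sucrase-isomaltase) was at -1.34 ± 0.54 (Wald adjusted p 0.0802) and Lct (lactase) at -0.77 ± 0.41 (Wald adjusted p 0.23), with intervals of -2.41 to -0.28 and -1.58 to 0.03.

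Of 9 genes of sugar uptake, fructose breakdown and gluconeogenesis 4 fell and none rose, with a median of -0.73. Pck1, the entry enzyme of gluconeogenesis, had 107 in crypt, 504 in WT villus and 44.5 in labelled-DKO villus, a change of -1.27 ± 0.30. Khk (-0.93 ± 0.17) and Tkfc (-0.87 ± 0.19), which carry out steps of fructose breakdown, and G6pc (-0.73 ± 0.20), which releases free glucose, were lower too. The sodium-glucose transporter gene Slc5a1 was not called at -0.53 ± 0.26, with an interval of -1.04 to -0.02.

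Metal and vitamin handling genes held further calls. Of 6 iron genes 2 fell, Slc11a2, the importer of ferrous iron (-1.22 ± 0.15), and Fth1, ferritin heavy chain (-0.66 ± 0.21). Of 7 vitamin A genes 3 fell and 1 rose, beside 7.19% of all genes called lower and 6.41% higher. Beside Rbp2, the retinol esterifying enzyme gene Lrat (-0.64 ± 0.19) and the retinal dehydrogenase gene Aldh1a1 (-0.67 ± 0.12) were lower. The gene that rose was Isx (0.88 ± 0.19), a homeobox factor known to repress vitamin A uptake, with 349 in crypt, 283 in WT villus and 643 in labelled-DKO villus.

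Transporter genes were called in both directions, more often downward. Of 156 solute carrier genes 26 were called lower and 9 higher, beside 7.19% and 6.41% of all genes, so the upward count is near that of all genes. The median of -0.08 turned to 0.06 when changes were centred on ribosomal protein genes. Slc25a15, the mitochondrial ornithine carrier, had the highest absolute Wald score (-1.03, Wald adjusted p 1.08e-15). Slc6a20a, an imino acid transporter (-1.20 ± 0.15), and Slc39a4, the zinc importer (-1.48 ± 0.29), were also lower. The increases included the taurine transporter gene Slc6a6, from 583 to 2319 (1.99 ± 0.40), and the phosphate transporter gene Slc34a2 (1.79 ± 0.63). Slc26a3, the chloride-bicarbonate exchanger of the brush border, rose by 0.70 (Wald adjusted p 3.25e-10).

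Of 54 genes for the metabolism of foreign compounds (cytochromes P450, transferases, carboxylesterases and efflux pumps) 19 fell and 4 rose, with a median of -0.29. Over all genes 7.19% were called lower and 6.41% higher, so the upward count is near that of all genes. Cyp3a11 had 339 in crypt, 1218 in WT villus and 111 in labelled-DKO villus, a change of -1.61 ± 0.13 (Wald adjusted p 3.69e-34). Together with Gstm3 and Cyp3a25 it had the largest absolute Wald scores of the list. Nr1i2, the gene of the xenobiotic receptor PXR that controls Cyp3a genes, was itself lower (-0.77 ± 0.22). The members that rose were Gsta4 (1.80 ± 0.63), Ces2c (1.67 ± 0.52), Gstk1 (1.61 ± 0.32) and Gsto1 (0.57 ± 0.16), of which 3 are glutathione transferases. These genes belong to families with near-identical copies, so their single values are uncertain where copies share reads.

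Promoters of the called genes were read for the letters that HNF4 proteins are known to prefer. RefSeq promoter sequences (GRCm38.p6, from 250 bases before to 50 after each start) were found for 5172 of the 6429 genes, in some cases several per gene. The motif CAAAGTCCA, on either strand, was in 10 of 472 promoters of genes called lower (2.12%) and in 0 of 435 promoters of genes called higher. It was in 44 of 6605 promoters of all genes tested (0.666%) and in 156 of 32851 promoters of the whole table (0.475%). The looser form CAAAGNNCA, which contains the first, was in 11.02% of promoters of genes called lower, 3.22% of those called higher, 5.59% of all tested and 6.36% of the whole table. The AP-1 motif TGANTCA was in 9.53% of promoters of genes called lower, 5.75% of those called higher, 5.84% of all tested and 7.81% of the whole table, and the TATA box TATAAA in 11.9%, 8.05%, 8.15% and 13.6% in the same order, so a higher share among genes called lower was not particular to the HNF4 letters. The E-box CACGTG differed less, at 10.6%, 10.1%, 9.72% and 7.15%. The cyclic AMP response element TGACGTCA had the opposite order, in 1.27% of promoters of genes called lower and 5.06% of those called higher, against 3.15% of all tested and 1.79% of the whole table. A match is a string of letters and not a measured site, and HNF4 binding was not measured in these libraries.

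The 10 genes called lower that hold CAAAGTCCA were Cyp3a11, Cyp2c65, Muc13, Btnl2, Sec16b, Pdzk1, Sult1b1, Trim31, Cd302 and Ece1, with a median change of -0.83. The other 32 tested genes with the motif were not called, and their median was -0.0055. Both medians follow from the calls by which these genes were split, so they do not measure an effect of the motif. Of all 42 tested genes with the motif, 26 had a change below 0. The 250 bases before the start are printed for 5 of the 10 genes, because they show how the distance and strand of the match differ between genes called lower, and for Tm4sf4, the largest increase, for contrast. Each runs 5′ to 3′ on the strand of its gene, with the 9 letters of the match in capitals, which read TGGACTTTG where the match is on the other strand.
Cyp3a11 (chr5:145879855-145880104, minus strand): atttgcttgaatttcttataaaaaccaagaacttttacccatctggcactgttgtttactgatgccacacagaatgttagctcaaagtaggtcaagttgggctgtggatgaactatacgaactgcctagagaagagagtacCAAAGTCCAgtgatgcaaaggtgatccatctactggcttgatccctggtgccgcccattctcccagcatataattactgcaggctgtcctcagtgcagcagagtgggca
Cyp2c65 (chr19:39060756-39061005, plus strand): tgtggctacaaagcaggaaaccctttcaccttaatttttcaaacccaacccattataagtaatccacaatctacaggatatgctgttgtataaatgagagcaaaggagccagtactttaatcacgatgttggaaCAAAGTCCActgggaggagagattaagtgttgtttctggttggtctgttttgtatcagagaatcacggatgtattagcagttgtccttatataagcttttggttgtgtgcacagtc
Btnl2 (chr17:34354572-34354821, plus strand): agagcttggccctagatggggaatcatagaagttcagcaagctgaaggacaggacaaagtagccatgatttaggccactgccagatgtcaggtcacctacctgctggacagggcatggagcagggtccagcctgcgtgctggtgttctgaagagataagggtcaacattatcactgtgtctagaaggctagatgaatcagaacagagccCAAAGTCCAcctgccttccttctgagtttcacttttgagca
Muc13 (chr16:33794239-33794488, plus strand): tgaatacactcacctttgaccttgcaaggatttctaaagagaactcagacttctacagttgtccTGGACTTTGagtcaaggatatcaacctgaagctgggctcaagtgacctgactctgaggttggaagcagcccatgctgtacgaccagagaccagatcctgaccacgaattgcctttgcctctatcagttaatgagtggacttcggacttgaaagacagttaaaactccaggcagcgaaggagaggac
Sec16b (chr1:157525920-157526169, plus strand): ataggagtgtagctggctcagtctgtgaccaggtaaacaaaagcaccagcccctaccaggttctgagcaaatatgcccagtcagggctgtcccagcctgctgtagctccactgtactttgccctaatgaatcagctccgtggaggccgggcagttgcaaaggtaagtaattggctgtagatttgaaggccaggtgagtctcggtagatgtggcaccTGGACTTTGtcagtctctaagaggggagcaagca
Tm4sf4 (chr3:57425160-57425409, plus strand): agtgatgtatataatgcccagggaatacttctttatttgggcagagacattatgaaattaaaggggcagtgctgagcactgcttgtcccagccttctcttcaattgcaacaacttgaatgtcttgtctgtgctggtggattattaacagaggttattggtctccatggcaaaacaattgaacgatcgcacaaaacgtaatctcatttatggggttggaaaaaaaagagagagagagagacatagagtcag
The match begins 109 bases before the start in Cyp3a11, 116 in Cyp2c65, 41 in Btnl2, 186 in Muc13 and 34 in Sec16b. It lies on the other strand in Muc13 and Sec16b. The table holds another promoter for each of these genes, Muc13 and Sec16b, and the 250 bases before that start do not hold these letters. Muc13 encodes a membrane mucin of the brush border, and its change over crypt was -1.17 ± 0.42. Sec16b encodes an organiser of the sites where cargo leaves the endoplasmic reticulum (-0.89 ± 0.20), and Cyp2c65 a P450 enzyme (-0.94 ± 0.28). The window of Tm4sf4 does not hold these letters.

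The 4 tested genes of the butyrophilin-like list were all called lower, beside 7.19% of all genes, with a median of -1.14. Btnl5-ps was also tested, but under that symbol it was not in the list and is not counted. These membrane proteins of the epithelium are known for maintaining intraepithelial gamma-delta T cells. Beside Btnl6, they were Btnl1 (-1.31 ± 0.31), Btnl4 (-0.97 ± 0.25) and Btnl2 (-0.71 ± 0.16). Btnl1 had 108 in crypt, 184 in WT villus and 43.3 in labelled-DKO villus. The 4 genes lie on chromosome 17.

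Antigen presentation genes held some decreases, beside 7.19% of all genes called lower. Of 15 MHC class I genes 4 fell and none rose, among them H2-K1 (-1.32 ± 0.29) and B2m, the light chain of class I (-0.59 ± 0.14), while the median of the list was 0.15. With the SE rebuilt from the fitted noise 6 of the 15 were called lower and 3 higher. Of 6 MHC class II genes 2 fell, H2-Ab1 (-1.37 ± 0.19) and H2-Aa (-1.15 ± 0.19), with a median of -0.52. Ciita, the master regulator of class II, was at -0.22 ± 0.13 and was not called (Wald adjusted p 0.27). None of 12 interferon and antiviral genes was called, with a median of 0.03. At an unadjusted p under 0.05 there was 1, and with the SE rebuilt from the fitted noise 1 was called lower. H2 genes are near-identical copies of each other and differ between mouse strains, and the strains are not given in the sources used here.

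Mucosal defence genes were mixed. Of 11 tested 4 fell and 1 rose, beside 7.19% of all genes called lower and 6.41% higher, with a median of -0.40. The antimicrobial lectin genes Reg3b (-1.36 ± 0.22) and Reg3g (-0.77 ± 0.28) and the immunoglobulin A transporter gene Pigr (-1.25 ± 0.46) fell with Muc13. Dmbt1, a secreted scavenger protein, had 2369 in crypt, 632 in WT villus and 9051 in labelled-DKO villus, a rise over crypt of 1.93 ± 0.45 (Wald adjusted p 0.000398). Of the 3 groups WT villus was thus the lowest for Dmbt1. Of 12 secretory cell genes 4 rose and none fell, with a median of 0.33. They were the goblet cell genes Fcgbp (0.99 ± 0.19), Clca1 (0.87 ± 0.18), Muc2 (0.78 ± 0.24) and Zg16 (0.73 ± 0.23), which were also higher in rebuilt level in WT villus than in crypt. A different share of goblet cells and a different amount of Pol II per cell cannot be told apart in bulk tissue.

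Cytoskeleton genes were called in both directions, beside 6.41% of all genes called higher and 7.19% lower. Of 12 keratin and junction genes 6 rose and 1 fell, with a median of 0.69. Krt8 had 337 in crypt, 670 in WT villus and 927 in labelled-DKO villus (1.46 ± 0.38), and Krt19 had 389, 276 and 1018 (1.39 ± 0.46). Krt18, the partner of Krt8, rose by 1.27 ± 0.37, and Krt20, a keratin of differentiated villus cells, by 1.13 ± 0.28. The adhesion genes Cdh17 (0.90 ± 0.23) and Cdh1 (0.75 ± 0.26) rose, and Cldn15, a pore-forming claudin, was lower at -1.07 ± 0.20. Krt20, with 365 in crypt, 1486 in WT villus and 802 in labelled-DKO villus, lay between the WT compartments.

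Of 17 microvillus genes 4 fell and 2 rose, beside 7.19% of all genes called lower and 6.41% higher, with a median of -0.21. The genes of Eps8l3, an actin regulator (-1.47 ± 0.27), of Cdhr2, a cadherin that links microvilli (-1.19 ± 0.24), and of the scaffolds Pdzk1 (-0.77 ± 0.12) and Slc9a3r1 (-0.71 ± 0.21) fell. Ezr, which ties actin to the membrane, rose by 1.11 ± 0.36, and Myo1d, a motor protein, by 0.97 ± 0.15. Vil1, the gene of villin, was at 0.46 ± 0.23 and was not called (Wald adjusted p 0.194). Of 17 actin and thymosin genes 5 rose and 1 fell, with Tmsb4x (1.13 ± 0.21) and S100a11 (1.14 ± 0.26) rising and the myosin gene Myh14 falling (-0.69 ± 0.19).

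**Figure D3:**
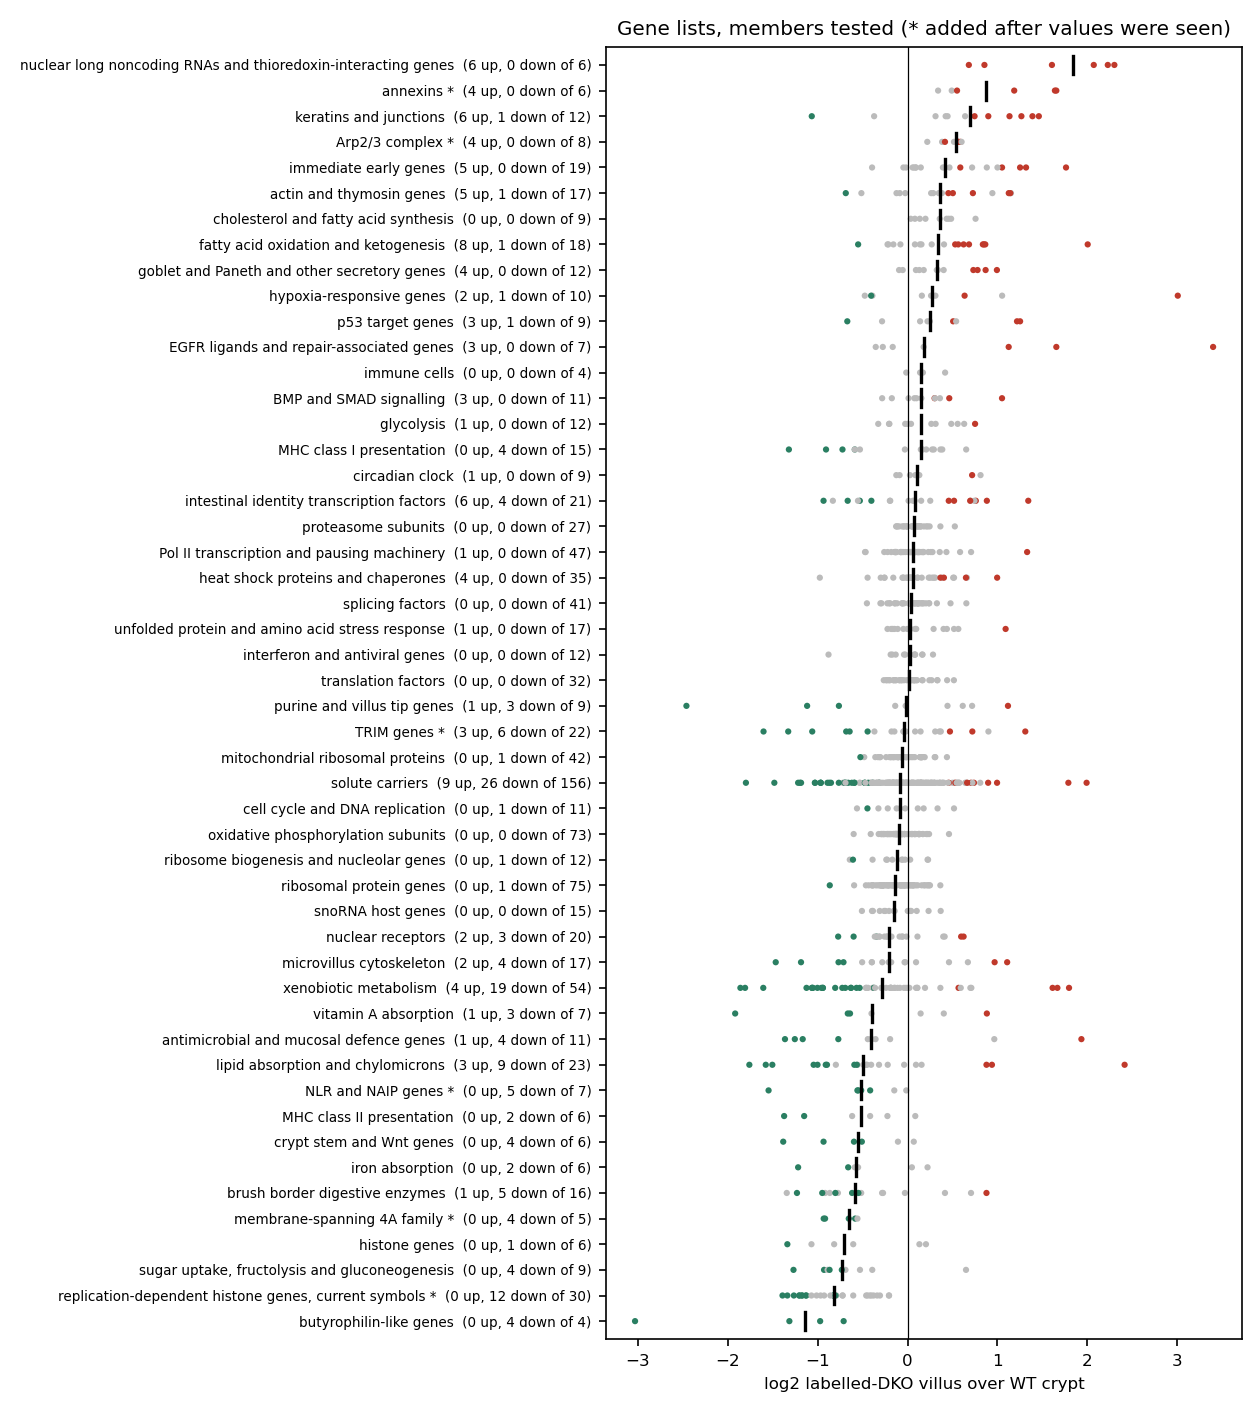
Every tested member of each gene list is a point at its log2 change of labelled-DKO villus over WT crypt (red called higher, green called lower, grey not called), with the list median as a black bar and lists ordered by median. Lists with an asterisk were chosen after the values were seen, and the butyrophilin-like genes are at the bottom with a median of -1.14.

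Genes of fatty acid oxidation were more often up than down, beside 6.41% of all genes called higher and 7.19% lower. Of 18 tested 8 rose and 1 fell, with a median of 0.34, while the same genes had a median of -0.07 for WT villus over crypt in the authors' deposited table. Cpt1a, the gate of fatty acid entry into mitochondria, had 615 in crypt, 388 in WT villus and 1119 in labelled-DKO villus, a change of 0.86 ± 0.12 (Wald adjusted p 5.05e-11). Hadha (0.56 ± 0.13) and Hadhb (0.68 ± 0.19), the subunits of the trifunctional protein, rose, but their windows overlap each other. Ppara, the receptor that drives these genes, rose by 0.62 ± 0.14. Hadh fell (-0.55 ± 0.13).

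Other energy pathways held few calls, beside 6.41% of all genes called higher and 7.19% lower. None of 73 oxidative phosphorylation genes was called by the Wald test, with a median of -0.10 that turned to 0.04 when centred on ribosomal protein genes, while 2 had an unadjusted p under 0.05 and 5 were called lower with the SE rebuilt from the fitted noise. Of 12 glycolysis genes Eno1 (enolase) rose, by 0.75 ± 0.14, a count near the share of all genes. None of 9 cholesterol and fatty acid synthesis genes was called, though all 9 changes were above 0, 4 had an unadjusted p under 0.05, and 4 were called higher with the rebuilt SE. Of 10 hypoxia-responsive genes 2 rose, Ndrg1 and the angiogenic factor gene Vegfa (0.63 ± 0.15), and Mxi1 fell (-0.41 ± 0.14).

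Stem cell and proliferation genes were described because crypt is the reference. Of the 24 stem cell and Wnt genes listed only 6 were tested. Of these 4 were called lower in labelled-DKO villus than in crypt and none higher, with a median of -0.55. The shares of all genes were 7.19% lower and 6.41% higher. Lrig1, a stem cell gene that restrains EGFR, fell (-0.51 ± 0.13), as did Sox9 (-0.93 ± 0.26). Rgmb fell as well (-0.60 ± 0.17), with 404 in crypt, 204 in WT villus and 267 in labelled-DKO villus. Sp5, a Wnt target, had 51.3 in crypt, 132 in WT villus and 19.7 in labelled-DKO villus (-1.38 ± 0.37). The Wnt feedback genes Axin2 (-0.11 ± 0.25) and Rnf43 (0.07 ± 0.17) were not called, with intervals of -0.59 to 0.37 and -0.26 to 0.39.

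Of 33 cell cycle genes 11 were tested, and only Aurka, a mitotic kinase gene, was called lower (-0.45 ± 0.12), with none called higher. That count is near the 7.19% of all genes called lower, and is not a result about the list. The list's median was -0.08 over crypt (0.05 when centred on ribosomal protein genes), against -0.57 for WT villus over crypt in the authors' deposited table. Pcna had 115 in crypt, 59.9 in WT villus and 92.1 in labelled-DKO villus, a change of -0.32 ± 0.29 with an interval of -0.89 to 0.24. Myc had 89.6, 42.8 and 68.1, a change of -0.40 ± 0.25 with an interval of -0.88 to 0.09. Neither change passed, and these intervals still allow a fall of over 0.8 on the log2 scale.

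Genes of the translation apparatus had list medians close to their crypt level. Of 75 ribosomal protein genes 1 was called, Rpl29 (-0.87 ± 0.23), beside 13.6% of all genes called in either direction. For 68 the 95% interval lay within 1 of zero on the log2 scale, beside 82.7% of all genes. The median SE was 0.28 for this list, above the 0.20 over all genes, which leaves small changes less resolved. With the rebuilt SE 5 were called lower and 0 higher, and 56 of the 75 changes were below 0. The list's median was -0.14 for labelled-DKO villus over crypt, 0 by construction when centred on these genes. In the authors' deposited tables it was -0.80 for WT villus over crypt and 0.65 for labelled-DKO over WT villus, 2 comparisons that share the WT villus libraries. Rpl3 had 422 in crypt, 169.5 in WT villus and 381 in labelled-DKO villus. None of 15 genes that host small nucleolar RNAs was called by the Wald test (1 at an unadjusted p under 0.05, and 1 lower with the rebuilt SE), with medians of -0.15 over crypt and -0.82 for WT villus over crypt. Gas5, one of these hosts, had 299 in crypt, 111 in WT villus and 252 in labelled-DKO villus. Of 12 ribosome biogenesis genes Pes1 fell (-0.61 ± 0.10), and 3 were called lower with the rebuilt SE. None of 32 translation factor genes was called by the Wald test (3 at an unadjusted p under 0.05, and 4 higher with the rebuilt SE).

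Replication-dependent histone genes, which are known to be transcribed mostly in dividing cells, gave other medians. Of 30 such genes, matched by their current symbols after the values were seen, 12 were called lower in labelled-DKO villus than in crypt and none higher, with a median of -0.82. All 30 changes were below 0, and 7.19% of all genes were called lower. In the authors' deposited tables the median was -0.72 for WT villus over crypt and -0.01 for labelled-DKO over WT villus. H1f5, a linker histone gene, had 242 in crypt, 72.7 in WT villus and 95.9 in labelled-DKO villus, a change of -1.34 ± 0.30. H2ac12 had 208, 66.2 and 79.4 (-1.39 ± 0.38), and its windows overlap those of H2bc12. By these medians labelled-DKO villus was near WT villus at these 30 genes and near crypt at the ribosomal protein genes, and the difference between the lists was not tested. The histone list drawn up earlier, by older symbols, matched 6 genes and gave other values, with a median of -0.71 over crypt, -0.08 for WT villus over crypt in the authors' deposited table, and 1 gene called lower (H1f5). Histone genes are near-identical copies in clusters, and reads could be shared between them.

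**Figure D4:**
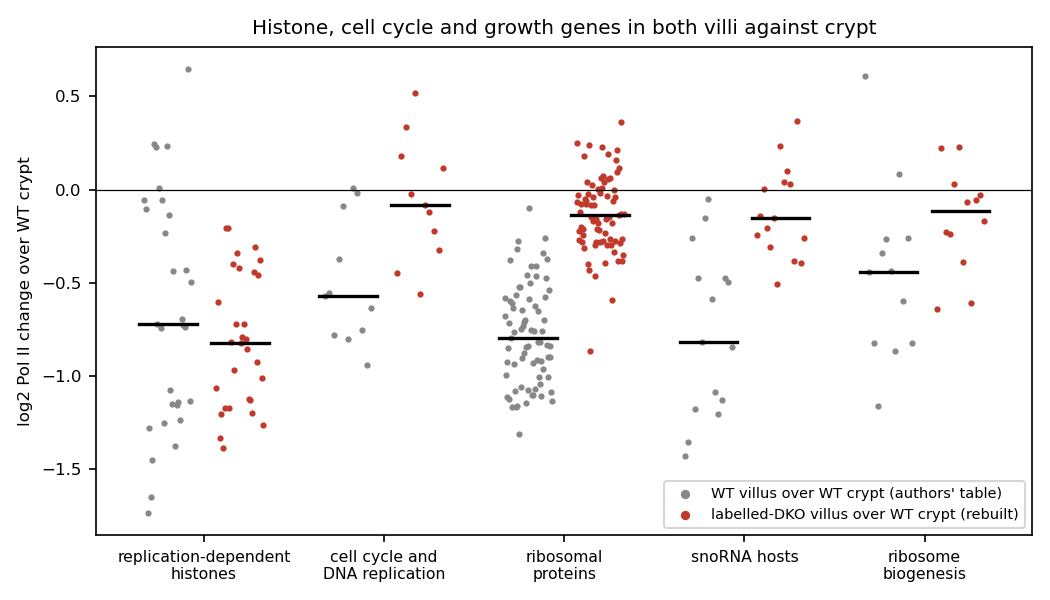
Points are genes of 5 lists, with the log2 change over WT crypt of WT villus (grey, the authors' deposited values) and of labelled-DKO villus (red, rebuilt), and bars are medians. The medians move from -0.80 to -0.14 for ribosomal protein genes but only from -0.72 to -0.82 for replication-dependent histone genes.

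Genes that respond early to growth factors were called upward where they were called. Of 19 immediate early genes 5 rose and none fell, with a median of 0.41, beside 6.41% of all genes called higher. In the authors' deposited tables WT villus stood higher over crypt at these genes, with a median of 0.95 and 14 called higher. The median for labelled-DKO over WT villus was -0.39, and these 2 comparisons share the WT villus libraries. A rise over crypt was thus not particular to labelled-DKO villus. Egr1 had 52.5 in crypt, 78.7 in WT villus and 178 in labelled-DKO villus (1.76 ± 0.32). Fos had 204, 1000.3 and 509 (1.32 ± 0.34), and so lay between the WT compartments. Dusp6, a feedback phosphatase of the ERK pathway, rose by 1.05 ± 0.27, while Jun was not called at 0.15 ± 0.26. The tissue was kept in EDTA for a shorter time for mutants, and a part of handling in these values was not tested.

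Of 7 tested genes of EGFR ligands and epithelial repair 3 rose and none fell, with a median of 0.18. Beside Areg they were Hbegf, another EGFR ligand (1.12 ± 0.28), and Anxa2 (1.66 ± 0.26). Anxa2 had 413 in crypt, 870 in WT villus and 1299.9 in labelled-DKO villus. Of 9 p53 target genes Cdkn1a, the cell cycle inhibitor p21 (1.22 ± 0.32), Mdm2 (0.51 ± 0.15) and Btg2 (1.25 ± 0.33) rose and the cell death gene Bbc3 fell (-0.67 ± 0.18). Cdkn1a had 113 in crypt, 275 in WT villus and 264 in labelled-DKO villus. Of 17 genes of the unfolded protein response Ppp1r15a rose (1.09 ± 0.22), and of 35 chaperone genes 4 rose, with Dnajb1 (0.65 ± 0.16) at the highest Wald score. The unfolded protein count is near the 6.41% of all genes called higher, and is not a result about that list. The chaperone count is above that share. With the rebuilt SE 7 chaperone genes were called higher and 3 lower, beside 15.6% and 14.3% of all genes. The EGFR ligand and p53 counts rest on only 7 and 9 tested genes.

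All 6 genes in a list of nuclear long noncoding RNAs and thioredoxin-interacting genes rose, with a median of 1.84. The list was drawn up with the high values of some of its members already known, so the count supports nothing. Beside Neat1, Txnip and Gm15441 they were Malat1, from 556 to 1694 (1.61 ± 0.32), Arrdc4 (0.86 ± 0.23) and Arrdc3 (0.68 ± 0.17). General transcription genes held few calls, beside 13.6% of all genes called in either direction. Of 47 genes of the Pol II machinery only the Mediator kinase-module gene Med13 was called (1.33 ± 0.42), and its windows overlap those of Brip1os. None of 41 splicing factor genes was called by the Wald test, 1 had an unadjusted p under 0.05, and 1 was called in each direction with the rebuilt SE.

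Transcription factors of intestinal identity moved in both directions. Of 21 tested 6 were called higher, Hnf4a and Hnf4g among them, and 4 lower, with a median of 0.08. The shares of all genes were 6.41% higher and 7.19% lower. Gata4, a factor of the proximal intestine, had 828 in crypt, 739 in WT villus and 1401 in labelled-DKO villus (0.76 ± 0.11, Wald adjusted p 1.85e-10). Tcf7l2, the Wnt pathway factor, rose by 0.46 ± 0.09 and Foxa1 by 0.52 ± 0.18. Gata5 (-0.53 ± 0.18) and Cdx1 (-0.67 ± 0.23) fell, as did Sox9. Cdx2, another regulator of intestinal fate, was not called at -0.20 ± 0.12, with an interval of -0.43 to 0.04.

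Of 20 nuclear receptor genes 3 fell and 2 rose, beside 7.19% of all genes called lower and 6.41% higher. Rxra, the shared partner of many receptors, fell (-0.60 ± 0.17), as did Ppard (-0.35 ± 0.10) and Nr1i2, while Nr1h4, the bile acid receptor FXR, rose by 0.60 ± 0.15 with Ppara. Of 11 genes of bone morphogenetic protein (BMP) signalling 3 rose and none fell, namely Id2 (1.05 ± 0.26), Smad1 (0.46 ± 0.10) and Smad6 (0.30 ± 0.10). Of 9 purine and villus tip genes 3 fell and 1 rose. Beside Ada the purine enzyme genes Xdh (-0.76 ± 0.25) and Pnp (-1.12 ± 0.41, Wald adjusted p 0.0499) fell, and Entpd7 rose by 1.12 ± 0.31. Of 9 circadian genes Bhlhe40 rose (0.72 ± 0.16), and 1 call is not a result about that list.

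Called genes were longer and had more signal than the tested genes as a whole. The median window span was 21.5 kb for genes called higher and 19.1 kb for genes called lower, against 12.3 kb over the 6408 genes with a span. Their median mean signals were 277 and 199 normalised counts, against 144 over all genes. How the SE depends on signal or on length was not tested. Whether longer genes or genes with more signal are called more easily at a given size of change is therefore not known here.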

How the data were processed

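Pol II ChIP-seq libraries of mouse duodenal epithelium were aligned to mm9, and the tools named in the submitters' processing notes are FastQC 0.11.3, Bowtie2 2.2.6, SAMtools 0.1.19, Picard, deepTools 2.4.2, Subread 2.03 and DESeq2 1.36.0. Per the file headers the authors counted read pairs over promoter and gene body windows with featureCounts 2.0.3, with mapping quality 30 as the minimum and duplicates left out, and with a pair assigned to every window it overlapped. The 18 columns of deposited counts carry no names, were matched to no sample and were not used, so edgeR tests of promoter or gene body counts were not run. Window positions were used.

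The authors deposited tables of WT villus against WT crypt and of WT villus against DKO villus, each with 6429 genes. Their deposited columns are the mean signal over all libraries (counts divided by size factors), the log2 fold change with its SE in log2 units, the Wald score, and the raw and adjusted p-value. Mean signals lay between 13.1 and 6634 (median 144). The window counted and whether fold changes were shrunken are not given in the sources used here, and they were taken as unshrunken. The deposited fold changes were subtracted, and group means were rebuilt assuming 3 libraries per group. An SE rebuilt from fitted noise of the crypt and labelled-DKO groups served as an alternative. The fit was to the difference between the squared deposited SEs, and it explained 90.1% of the uncentred sum of squares of that difference. Noise of WT villus was not fitted and was taken as the mean of the fitted values. The median largest SE was 0.20 and the median rebuilt SE 0.14. Scripts used Python 3.11.15, pandas 2.3.3, NumPy 2.4.6 and SciPy 1.17.1, and the rebuilding was tested on simulated data.

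Named genes were Hnf4a and Hnf4g, the 12 largest increases and decreases among called genes at or above the median signal, and from each of 46 lists the members with the largest absolute Wald scores and those moving against the list. The comparison and the lists were chosen with earlier results of these data known, and 8 more lists and the promoter motifs were added after values were seen. Some genes of these lists are counted but not reported here by name.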

Additional observations from a re-analysis of the deposited data

How the results depend on the processing

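With the SE rebuilt from the fitted noise 1923 genes were called (1001 higher, 922 lower, 330 in the 46 lists together), against 874 (412, 462 and 187), and all 874 were among them. An adjusted p under 0.01 left 558 (252 higher, 306 lower, 142 in lists), a limit of 1 on the log2 scale 223 (116, 107 and 71), and a test against changes up to 0.5 left 90 (32, 58 and 31), since stricter rules pass fewer genes. Centring on all genes gave 878, of which 871 were shared. Centring on ribosomal protein genes, a shift of 0.14 for every gene, gave 1200 (902 higher, 298 lower), of which 710 were shared, and 216 in lists. A mean signal of at least 100 (4393 genes, 831 called) and leaving out overlapping genes (3768 genes, 652 called) stayed within 1.5 times. None of the 26 genes named as targeted or among the largest changes turned its direction in these settings. Genes within 0.14 below zero, such as Axin2 at -0.11, take the other sign when centred on ribosomal protein genes, and they were not called. The medians of the purine and villus tip, solute carrier, cell cycle, ribosome biogenesis, oxidative phosphorylation, mitochondrial ribosomal and TRIM lists crossed zero when centred on ribosomal protein genes, by construction of that shift. Dgat2, Gp1bb and Septin5 were lost at an adjusted p under 0.01, Hnf4a under the limit of 1, and Dgat2, Gp1bb, Septin5, Sgk1, Hnf4a and Hnf4g against changes up to 0.5. No paired analysis was possible because neither comparison table holds single libraries and the count columns carry no names. Leaving out each replicate, DESeq2 or edgeR on counts, and other normalizations of promoter and gene body counts were not run for the same reason.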

Other observations

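The families below were picked after their values were seen, so their counts are a description. They stand beside 6.41% of all genes called higher and 7.19% lower. Of 6 annexin genes tested, which encode calcium-dependent membrane binding proteins, 4 were called higher in labelled-DKO villus than in crypt and none lower, with a median log2 change of 0.87. Anxa13, an annexin of the intestinal epithelium, had a level of 652 in crypt, 604 in WT villus and 2031 in labelled-DKO villus, a change of 1.64 ± 0.14 (Wald adjusted p 5.76e-31). Anxa4 rose by 1.19 (Wald adjusted p 4.98e-05). Of 8 genes of the Arp2/3 complex, which nucleates branched actin, 4 rose and none fell, all 8 changes were above 0, and the median was 0.54. Among single genes, Slc6a6 apart, Serpinb1a (a protease inhibitor) rose from 213 to 830 (1.96 ± 0.32), Errfi1 (a feedback inhibitor of EGFR) from 170 to 600.2 (1.82 ± 0.36), and Glul (glutamine synthetase) from 111 to 390 (1.81 ± 0.33). The windows of Errfi1 overlap those of 1700045H11Rik.

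Several other families and single genes were lower. Of 3 tested genes of the guanylin pathway, which controls fluid secretion, all were called lower. Guca2b (uroguanylin) had 82.5 in crypt, 325 in WT villus and 31.7 in labelled-DKO villus (-1.38 ± 0.21), its receptor Gucy2c changed by -0.85 ± 0.12, and the downstream kinase gene Prkg2 by -0.65 ± 0.19. Ihh, the hedgehog ligand of the epithelium, changed by -1.55 ± 0.21, and Ccl25, a chemokine that draws lymphocytes to the small intestine, by -1.52 ± 0.21. Of 7 genes of the NLR and NAIP families, sensors of microbes, 5 fell and none rose, led in size by Nlrp6 (-1.55 ± 0.37). Of 5 membrane-spanning 4A genes 4 fell. Of 22 TRIM genes 6 fell and 3 rose, from Trim30d (-1.60 ± 0.18) to Trim25 (1.31, Wald adjusted p 0.00222), with a median of -0.04 that turned to 0.10 when centred on ribosomal protein genes. Tm4sf4 has relatives that moved the other way, with Tm4sf5 at -0.97 ± 0.15 and Tm4sf20 at -0.89 ± 0.27.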
